A study of Mus musculus with 24 samples.

Results

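NF-kappaB is a family of transcription factors whose pathway was followed here through 8 genes: the subunits Nfkb1, Nfkb2, Rela and Relb, the inhibitors Nfkbia and Nfkbie, and the kinases Ikbkb and Chuk. They were chosen by name, with earlier results of these data known, and all 8 were among the 757 endogenous genes measured. RNA of the right cortex, right striatum/thalamus and right cerebellum of CD1 mouse pups was hybridized to probes of the nCounter Mouse Neuroinflammation panel, each with a fluorescent barcode, and the barcodes were counted with no amplification step. In the hypoxic-ischemic brain injury (HIBI) arm, the right common carotid of 4 pups was cauterized at postnatal day 9, and the pups later breathed 8% oxygen for 30 min. The 4 sham pups had the vessel exposed but not ligated and stayed in normal air. Both arms shared isoflurane anesthesia, bupivacaine at the incision and separation from the dam, and the brains were taken 30 min after the injury. This gave 24 libraries, with 4 pups of each arm in each region, and each pup gave all 3 regions. The pups are called by their labelled numbers, 1, 4, 5 and 7 for HIBI and 2, 3, 6 and 8 for sham, and values are listed in that order. Pups of both sexes were randomized, there was no hypoxia-only arm, and carotid ligation spares the blood supply of the cerebellum, which is exposed to the hypoxia alone, so the region and the kind of insult cannot be told apart.

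NF-kappaB dimers of Rel subunits wait in the cytoplasm, bound to inhibitors of the IkB family. Cytokine receptors, Toll-like receptors and stress switch on the IkB kinases, which mark the inhibitor for destruction, and the freed dimer enters the nucleus. The activity of the pathway is therefore set largely at the level of proteins, but the genes of several of its own members, Nfkbia above all, are transcribed by NF-kappaB and close a feedback loop. In the brain the pathway is known for its inflammatory role in microglia, astrocytes and endothelium, and it is also active in neurons.

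The promoters of Nfkbia, Nfkb2 and Nfkbie are shown because these are the members with a match to the kappaB consensus, the DNA element that NF-kappaB dimers bind. Each window holds 250 bases before and 50 bases after a RefSeq start site in mouse build GRCm38.p6, 5′ to 3′ on the strand of the gene, with matches on either strand in capitals.
Nfkbia (chr12:55492598-55492897, minus strand): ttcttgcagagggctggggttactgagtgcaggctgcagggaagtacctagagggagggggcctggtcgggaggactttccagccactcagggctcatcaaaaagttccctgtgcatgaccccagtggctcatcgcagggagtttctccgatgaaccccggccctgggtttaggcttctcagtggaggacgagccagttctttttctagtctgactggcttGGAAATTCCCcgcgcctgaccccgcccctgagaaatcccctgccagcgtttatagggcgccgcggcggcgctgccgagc
Nfkb2 (chr19:46304487-46304786, plus strand): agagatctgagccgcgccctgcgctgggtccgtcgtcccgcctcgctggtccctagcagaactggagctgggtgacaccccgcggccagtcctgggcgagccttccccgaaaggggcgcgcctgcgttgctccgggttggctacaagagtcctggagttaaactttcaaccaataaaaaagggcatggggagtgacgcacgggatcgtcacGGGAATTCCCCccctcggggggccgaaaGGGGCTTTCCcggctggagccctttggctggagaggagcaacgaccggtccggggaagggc
Nfkbie (chr17:45555450-45555749, plus strand): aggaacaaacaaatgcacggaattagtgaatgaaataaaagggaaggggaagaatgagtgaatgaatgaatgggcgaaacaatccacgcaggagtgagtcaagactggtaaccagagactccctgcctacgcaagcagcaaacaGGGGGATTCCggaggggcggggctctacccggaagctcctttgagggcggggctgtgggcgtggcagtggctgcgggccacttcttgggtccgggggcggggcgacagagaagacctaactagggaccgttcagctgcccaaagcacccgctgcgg
The Nfkbia window had 1 match, from 29 to 20 bases before the start site. The Nfkb2 window had 3 matches, of which 2 overlap each other, and the Nfkbie window had 1, from 106 to 97 bases before the start site. A further 2 windows at other Nfkb2 start sites overlap each other and together held 2 matches, of which 1 lies in both, while the windows of Rela and Chuk held 0. Of 32851 mouse promoter windows of the same length, 4.51% held a match and 0.554% held 2 or more. Windows for 5 of the 8 genes were in the table used here, so Nfkb1, Relb and Ikbkb are named only, and a match is a description of letters and not a measured site.

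The libraries held 855129 to 1134995 counts over all 784 probes (median 999252), and all 8 genes were above the background limit, the mean of 8 negative control probes plus 2 SD, in all 24 libraries. The limit lay between 29.5 and 43.5 counts. Normalized counts below are raw counts divided by the TMM-scaled library size and brought to the mean size, and are compared between libraries but never between genes, since probes differ in efficiency. Their scaling was set once over all 24 libraries. Each fold change comes from a fit with its own scaling of the libraries it used, so ratios of the listed counts can differ from it. The cortex marker Tbr1 marked the cortex libraries, at 873 to 978 normalized counts in HIBI pups, against 842 to 1064 in sham pups, and at most 139.7 in any other library. The striatum/thalamus libraries differed between the arms in markers of tissue makeup: Slc17a6, a thalamic transporter, averaged 9078 ± 1070 in HIBI pups and 12760 ± 1050 in sham pups (SD, n = 4 each, adjusted p = 0.0217, edgeR), and Ttr, a choroid plexus transcript, ranged over 69.8 to 3117 in HIBI pups and 68.5 to 147 in sham pups. Eomes, a cerebellar marker, averaged 308 ± 151 in the HIBI and 594 ± 215 in the sham cerebellum (log2 -0.94, adjusted p = 0.257, edgeR). Slc17a7 was also lower in the HIBI cerebellum (log2 -0.56, adjusted p = 0.199) and Slc17a6 higher (0.41, adjusted p = 0.342), by edgeR. Ttr ranged over 767 to 2198 in the HIBI and 138 to 8466 in the sham cerebellum. The part of these differences in the cerebellar results was not tested. In bulk tissue, fewer cells of a type and less RNA per cell cannot be told apart.

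No member passed the test of HIBI over sham in any of the 3 regions at 30 min, by the edgeR quasi-likelihood F test with Benjamini-Hochberg adjustment over all genes and a threshold of 0.05. The count was 0 of 8 in the cortex, where 2.33% of the 731 genes tested passed, 0 of 8 in the striatum/thalamus, where 2.73% of 732 passed, and 0 of 8 in the cerebellum, where 0.420% of 714 passed. At an unadjusted p under 0.05 there were 2 members in the cortex (Nfkb2 and Nfkbia), 1 in the striatum/thalamus (Nfkbia) and 1 in the cerebellum (Nfkbia), beside 9.44%, 18.3% and 16.4% of all genes in the cortex, the striatum/thalamus and the cerebellum. The median log2 fold change of the members was 0.03 in the cortex, 0.02 in the striatum/thalamus and -0.14 in the cerebellum, with all genes at -0.01, 0.0037 and 2e-04 in the same regions. All HIBI libraries lay above all sham libraries for Nfkbia in 2 regions and for Nfkb2 and Relb in 1 region each, and no other member had arms that did not overlap. The same held for 4.38%, 5.33% and 4.48% of all genes tested in the cortex, the striatum/thalamus and the cerebellum.

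**Figure D1:**
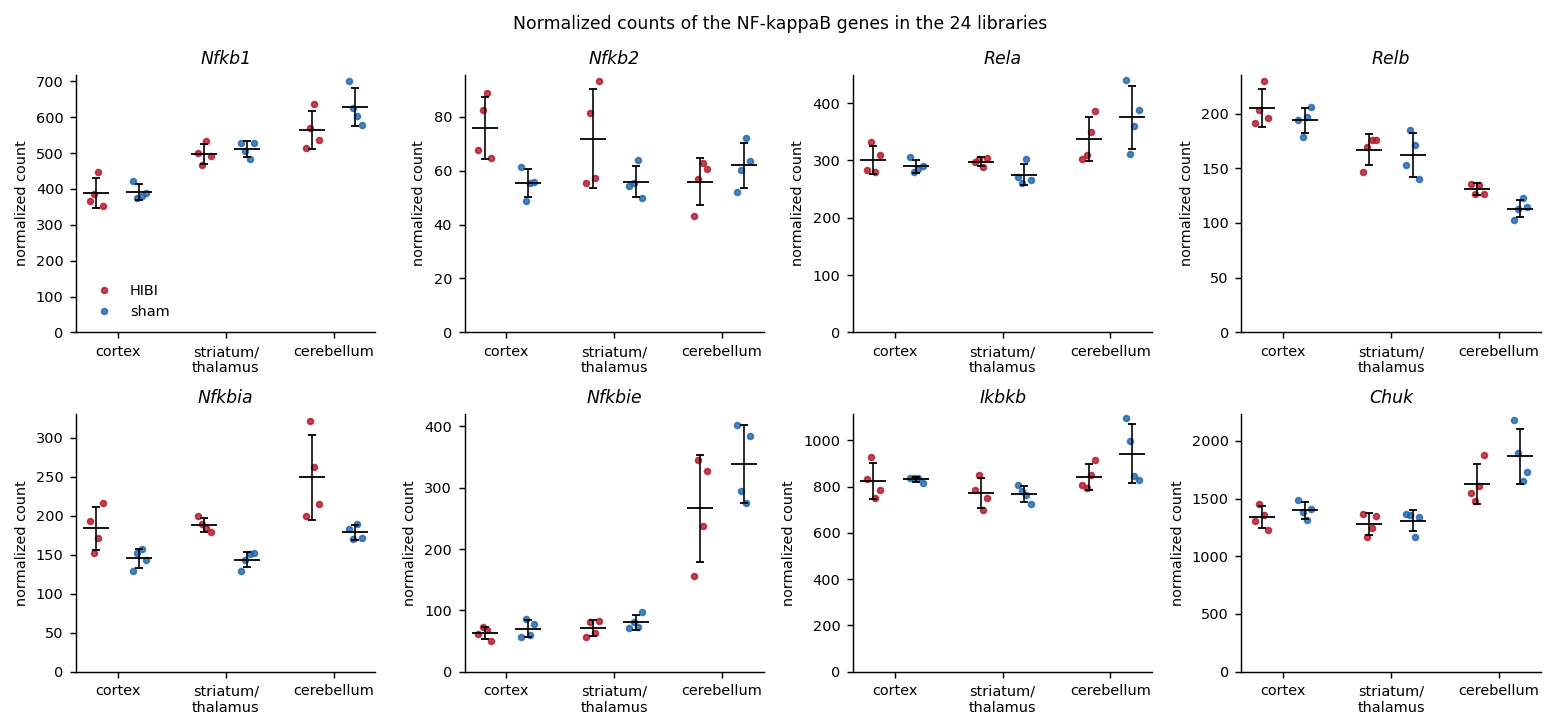
Normalized counts (y axis, linear and from 0) of each of the 8 genes in the 24 libraries, by region (x axis). Red points are HIBI pups and blue points sham pups, with the black bar at the mean and the whiskers at 1 SD (n = 4 each). Nfkbia in the striatum/thalamus and cerebellum, Nfkb2 in the cortex and Relb in the cerebellum are the panels where the red and blue points do not overlap.

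Among the inhibitors, Nfkbia encodes IkB-alpha, which holds NF-kappaB dimers in the cytoplasm and is resynthesized after their activation. In the striatum/thalamus it had 199, 189.7, 184 and 178 normalized counts in HIBI pups, against 129.5, 144, 150.4 and 152 in sham pups. Every HIBI library lay above every sham library, as it did for 5.33% of the genes tested in that region. The difference was 1.30-fold (95% interval 1.14 to 1.49, log2 0.38 ± 0.09 SE) with an adjusted p of 0.0556 by edgeR, just outside the threshold. By DESeq2, by limma-voom and with the negative controls subtracted the adjusted p was 0.0219, 0.0433 and 0.0401, and without HIBI pups 4 and 5, the libraries rich in Ttr, the log2 fold change was 0.39 with an adjusted p of 0.0854. Only 3 of the 15 alternatives passed. Leaving out 1 pup at a time gave adjusted p values of 0.0506 to 0.167 by edgeR. The part of the Slc17a6 and Ttr differences in this result was not tested further.

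In the cerebellum Nfkbia had 199.8, 321, 262 and 215 normalized counts in HIBI pups, against 182, 169.8, 189.6 and 172 in sham pups. The arms again did not overlap, which held for 4.48% of all genes tested there, and HIBI pups 4 and 5 were the highest. The fold was 1.41 (95% interval 1.11 to 1.79, log2 0.49 ± 0.15 SE, adjusted p = 0.224, edgeR). Without HIBI pup 4 the log2 fold change was 0.34. In the cortex Nfkbia had 194, 152, 172 and 216 normalized counts in HIBI pups, against 129, 152, 157 and 143 in sham pups. Here 3 of the 4 HIBI libraries lay above all sham libraries and pup 4 lay among them, and the fold was 1.27 (95% interval 1.04 to 1.55, adjusted p = 0.385, edgeR).

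Since Nfkbia lay higher in HIBI pups in each region, the 3 regions of each pup were averaged on the log2 scale and the 8 pups compared with limma, a test that was added after these values were seen and that is not independent of them. Nfkbia had geometric means of 198, 210.0, 202 and 202 normalized counts in HIBI pups, against 145, 155, 165 and 155 in sham pups. The arms did not overlap, as for 6.44% of the 745 genes tested. Nfkbia was higher in HIBI pups by 1.31-fold (log2 0.39 ± 0.06 SE, adjusted p = 0.00418, limma) and ranked number 16 by p. It was the 1 member of 8 past the threshold in this comparison, which 3.76% of all genes passed. The adjusted p stayed between 0.00269 and 0.0196 over 9 alternatives, namely reference-gene scaling and leaving out each pup in turn. The other 7 members had adjusted p values from 0.289 (Nfkb2, log2 0.21 ± 0.11 SE) to 0.968 (Rela, log2 0.01 ± 0.07 SE).

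**Figure D2:**
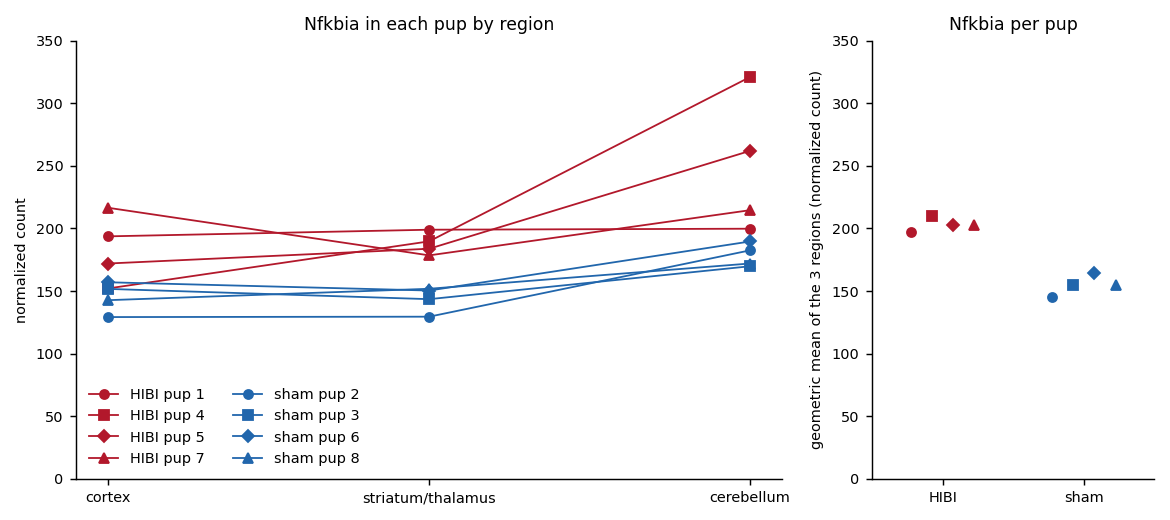
Nfkbia in each pup: normalized counts by region (left, one line per pup) and the geometric mean of the 3 regions of each pup (right), both on linear axes from 0. The 4 HIBI pups (red) have regional means of 198 to 210.0 and the 4 sham pups (blue) 145 to 165, while the spread among HIBI pups is widest in the cerebellum.

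Nfkbie encodes IkB-epsilon, another feedback inhibitor. It had 60.9, 72.8, 67.8 and 50.3 normalized counts in the HIBI cortex and 56.1, 85.2, 60.3 and 77.2 in the sham cortex. In the striatum/thalamus it had 56.6, 81.3, 63.8 and 83.4 in HIBI pups and 71.4, 81.6, 72.1 and 97.0 in sham pups. The libraries of both arms were interleaved in these regions, with log2 fold changes of -0.14 ± 0.17 SE and -0.18 ± 0.16 SE in the cortex and the striatum/thalamus (adjusted p = 0.794 and 0.565, edgeR). The cerebellar HIBI values spread the most for their mean of any group (coefficient of variation 32.8%). The counts were 156, 345, 238 and 327 in HIBI pups and 403, 295, 275 and 384 in sham pups. HIBI pups 1 and 5 lay below all sham pups there, and the log2 fold change was -0.34 ± 0.23 SE (95% interval of the fold 0.549 to 1.14, adjusted p = 0.461, edgeR).

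Among the subunits, Nfkb2 encodes the precursor that the noncanonical pathway processes into the partner of RelB. In the cortex it had 67.5, 82.5, 88.6 and 64.6 normalized counts in HIBI pups, against 61.4, 48.6, 55.5 and 55.7 in sham pups. The arms did not overlap, as for 4.38% of all genes tested in the cortex. The fold was 1.38 (95% interval 1.12 to 1.69, log2 0.46 ± 0.13 SE, adjusted p = 0.168, edgeR), and its log2 value was 0.70 (adjusted p = 0.172) when the background was subtracted, since the counts lie close to the background limit. The study chose Nfkb2 for qPCR in these same samples, among mRNAs it reported as differentially expressed. Its rule asked for a fold over 1.5 and also took unadjusted p-values. The study reported a strong correlation between qPCR and nCounter fold changes over the chosen mRNAs and all regions together. The choice of Nfkb2 was made from these counts, so its direction here is not independent of that choice. By the edgeR folds and unadjusted p here, 0 members had a fold over 1.5 with p under 0.05 in any region.

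In the striatum/thalamus Nfkb2 had 55.5, 81.3, 57.3 and 93.1 normalized counts in HIBI pups, against 54.5, 55.3, 64.0 and 49.95 in sham pups. Only HIBI pups 4 and 7 lay above the sham pups, and the log2 fold change was 0.36 ± 0.18 SE (adjusted p = 0.329, edgeR). In the cerebellum the values were 43.3, 56.9, 62.7 and 60.7 in HIBI pups and 52.0, 60.1, 72.1 and 63.5 in sham pups. The arms overlapped there, with a log2 fold change of -0.14 ± 0.16 SE (adjusted p = 0.669, edgeR).

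Relb encodes the noncanonical Rel subunit. In the cerebellum it had 136, 126, 135 and 127 normalized counts in HIBI pups, against 103, 112, 123 and 114 in sham pups. All HIBI libraries lay above all sham libraries, as for 4.48% of all genes tested there, by 1.17-fold (95% interval 0.993 to 1.37, log2 0.22 ± 0.10 SE, adjusted p = 0.304, edgeR). The summed level of 11 microglial markers in the same cerebellar libraries was 3867 to 4801 normalized counts in HIBI pups, against 2934 to 4026 in sham pups, with 0 of the 11 passing the test and no marker at background, and its part in the values of Relb or Nfkbia was not tested. Relb had 192 to 229 normalized counts in the HIBI cortex and 178 to 206 in the sham cortex, and 146 to 176 in the HIBI striatum/thalamus and 140.1 to 185 in the sham striatum/thalamus. The arms overlapped in both regions (log2 0.09 ± 0.10 SE and 0.04 ± 0.11 SE, adjusted p = 0.791 and 0.882, edgeR).

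Nfkb1 and Rela encode the subunits of the classical NF-kappaB dimer. Nfkb1 averaged 388 ± 40.9 normalized counts in HIBI pups, against 391 ± 22.2 in sham pups in the cortex (SD, n = 4 each), 499 ± 27.7 in the HIBI and 511 ± 21.4 in the sham striatum/thalamus, and 564 ± 52.8 in the HIBI and 628 ± 52.8 in the sham cerebellum. Its arms overlapped in all 3 regions, with 95% intervals of the fold of 0.864 to 1.15 in the cortex, 0.881 to 1.08 in the striatum/thalamus and 0.79 to 1.04 in the cerebellum. Rela averaged 301 ± 24.4 in HIBI pups and 290.0 ± 11.2 in sham pups in the cortex, 298 ± 7.29 in the HIBI and 275 ± 18.6 in the sham striatum/thalamus, and 337 ± 38.7 in the HIBI and 375 ± 54.2 in the sham cerebellum. Its fold intervals were 0.914 to 1.19, 0.965 to 1.21 and 0.756 to 1.09 for the cortex, the striatum/thalamus and the cerebellum, and its arms overlapped in each.

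The kinases Ikbkb and Chuk encode the catalytic IKK-beta and IKK-alpha, of which the one drives the classical and the other the noncanonical pathway. Ikbkb had 749.6 to 929.6 normalized counts in the HIBI cortex and 815 to 838 in the sham cortex, 698 to 851 in the HIBI striatum/thalamus and 726 to 807 in the sham striatum/thalamus, and 794 to 916 in the HIBI cerebellum and 827 to 1095 in the sham cerebellum. Chuk had 1229 to 1456 in the HIBI cortex and 1312 to 1486 in the sham cortex, 1168 to 1370 in the HIBI striatum/thalamus and 1169 to 1363 in the sham striatum/thalamus, and 1477 to 1877 in the HIBI cerebellum and 1652 to 2184 in the sham cerebellum. All of these ranges overlapped. The log2 fold changes of both kinases lay between -0.06 and 0.00 in the cortex and striatum/thalamus and were -0.15 ± 0.09 SE (Ikbkb, adjusted p = 0.379) and -0.18 ± 0.09 SE (Chuk, adjusted p = 0.313) in the cerebellum by edgeR.

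**Figure D3:**
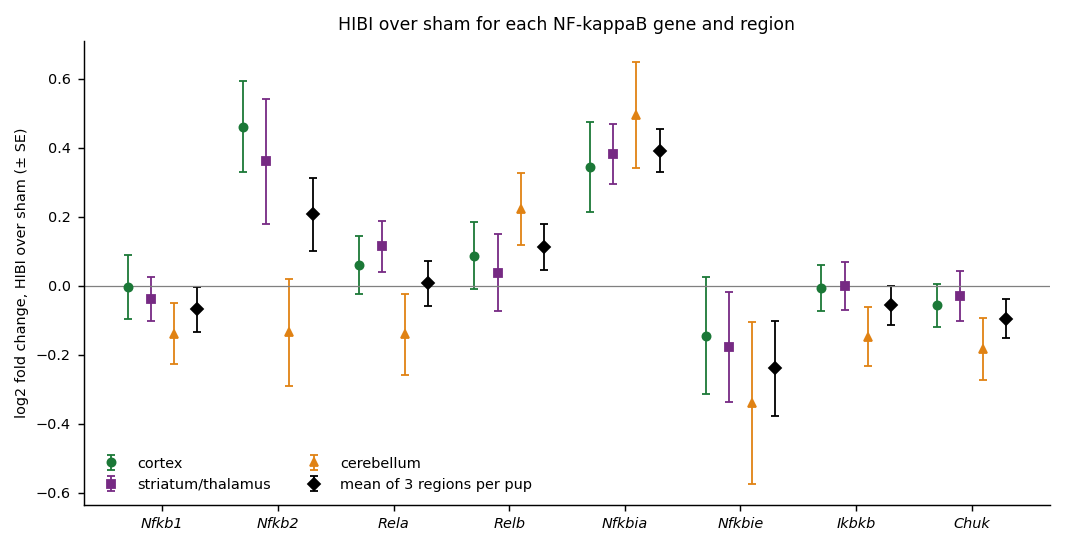
Log2 fold change of HIBI over sham (y axis, bars are ± SE) for each of the 8 genes (x axis), in the cortex (green circles), striatum/thalamus (purple squares), cerebellum (orange triangles) and for the mean of the 3 regions of each pup (black diamonds). Nfkbia lies between 0.34 and 0.49 in every region, while Nfkb2 is above 0 in the cortex and striatum/thalamus and below 0 in the cerebellum.

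Whether the effect of HIBI differed between regions was tested in one edgeR fit of the 24 libraries with pup as a block. Of the 8 members 0 passed for cortex minus cerebellum (0% of the 745 genes tested), 0 for striatum/thalamus minus cerebellum (0.805%) and 0 for cortex minus striatum/thalamus (0%). Nfkb2 had a log2 difference of effect of 0.60 ± 0.22 SE for cortex minus cerebellum (adjusted p = 0.362) and 0.50 ± 0.22 SE for striatum/thalamus minus cerebellum (adjusted p = 0.329), in edgeR. Rela had 0.27 ± 0.12 SE for striatum/thalamus minus cerebellum (adjusted p = 0.349, edgeR). Nfkbia had -0.13, -0.09 and -0.04 in the 3 comparisons with SEs of 0.19 to 0.20, and adjusted p of 0.818, 0.837 and 0.987 (edgeR). The 95% interval of its ratio of folds for cortex over cerebellum was 0.688 to 1.21.

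Sham pups gave the regional baseline. The folds here come from scaling of the sham libraries alone, so they differ somewhat from ratios of the counts listed. Against the cerebellum, 6 of 8 members passed in the cortex (1 higher and 5 lower, edgeR with pup as a block), where 67.2% of the 740 genes tested passed, 31.5% higher and 35.7% lower. In the striatum/thalamus 7 of 8 passed (1 higher and 6 lower), against 64.6% of all genes, 32.2% higher and 32.4% lower. Between the cortex and the striatum/thalamus 1 of 8 passed, a gene that was lower in the cortex, against 40.0% of all genes, 18.0% higher and 22.0% lower. With 8 members, these shares were not tested against those of the panel. The count for striatum/thalamus over cerebellum was 4 of 8 with reference-gene scaling, and also 4 without sham pup 2 or without sham pup 3. Those fits called 485 of 740, 441 of 734 and 437 of 732 genes.

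Nfkbie had the largest regional difference of the 8 genes. It had 56.1, 85.2, 60.3 and 77.2 normalized counts in the sham cortex, 71.4, 81.6, 72.1 and 97.0 in the sham striatum/thalamus, and 403, 295, 275 and 384 in the sham cerebellum. The cerebellum was higher in 4 of 4 pups against either region without overlap. The log2 difference was -2.20 ± 0.14 SE for cortex over cerebellum (fold 0.217, adjusted p = 1.81e-07) and -1.97 ± 0.14 SE for striatum/thalamus over cerebellum (fold 0.256, adjusted p = 4.91e-07), while the cortex and the striatum/thalamus did not pass against each other (log2 -0.24 ± 0.16 SE, adjusted p = 0.279, all edgeR). Raw counts of Nfkbie in the sham cortex were 53 to 86, not far above the background limits there of 33.6 to 43.5. Over the alternatives the log2 value ran from -2.62 to -2.035 for cortex over cerebellum and from -2.28 to -1.82 for striatum/thalamus over cerebellum.

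Relb was the one member higher outside the cerebellum. It had 194, 178, 197 and 206 normalized counts in the sham cortex, 153, 185, 172 and 140.1 in the sham striatum/thalamus, and 103, 112, 123 and 114 in the sham cerebellum. Its level was above the cerebellum in 4 of 4 pups in both regions, by 1.80-fold in the cortex (log2 0.85 ± 0.10 SE, adjusted p = 2.36e-05) and by 1.54-fold in the striatum/thalamus (log2 0.63 ± 0.10 SE, adjusted p = 0.00028). Cortex over striatum/thalamus gave a log2 difference of 0.22 ± 0.10 SE (adjusted p = 0.101, edgeR), so these neighbours in the order did not differ past the threshold.

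Levels of cell type markers moved with the same regions. The summed level of the 11 microglial markers was 6471 to 7118 normalized counts in the sham cortex, 4886 to 5366 in the sham striatum/thalamus and 2934 to 4026 in the sham cerebellum. Mean levels of Relb and of the summed neuronal markers followed the same order. For Relb the cortex did not pass against the striatum/thalamus. Summed oligodendrocyte markers (7 genes) were 13070 to 18620, 22820 to 38600 and 51640 to 73680, and astrocyte markers (4 genes) 12640 to 14410, 11270 to 12660 and 20650 to 26210 in the same order of regions, both highest in the cerebellum, as were Nfkbie and the neuronal marker Rbfox3. Neuronal markers (5 genes) were 48790 to 52260, 45280 to 49240 and 29900 to 35610, but a sum is carried by its brightest probes: Rbfox3, a nuclear marker of neurons, was lower than the cerebellum in the cortex and the striatum/thalamus (log2 -0.62 and -1.76, adjusted p = 3.64e-05 and 5.21e-08, edgeR), with 3 other neuronal markers higher in the cortex and 4 in the striatum/thalamus. Over the cerebellum, 11 of 11 microglial markers were higher in the cortex and 10 in the striatum/thalamus. Astrocyte markers were lower in both (4 of 4), and oligodendrocyte markers lower in the cortex (7 of 7) and in the striatum/thalamus (6 lower and 1 higher). Summed endothelial markers (6 genes) were 3414 to 3901, 3311 to 3412 and 3548 to 3697. None of these lists had a gene whose median lay below the background limit in these groups, and the part of cell makeup in the regional values of Relb and Nfkbie was not tested.

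Nfkb1 was graded over the 3 regions. It had 423, 374, 380.0 and 388 normalized counts in the sham cortex, 529.5, 506, 484 and 527 in the sham striatum/thalamus, and 702, 626, 605 and 579 in the sham cerebellum. No values overlapped between these regions, and each of the 3 comparisons passed: log2 -0.61 ± 0.06 SE for cortex over cerebellum (adjusted p = 3.75e-06), -0.43 ± 0.06 SE for cortex over striatum/thalamus (adjusted p = 1.66e-04) and -0.19 ± 0.06 SE for striatum/thalamus over cerebellum (adjusted p = 0.0139). The last of these did not pass when the counts were scaled by the 13 reference genes (log2 -0.09), nor without sham pup 2, 3 or 6 (adjusted p = 0.0639, 0.0733 and 0.0721, edgeR).

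The remaining members differed less between regions. Rela averaged 290.0 ± 11.2 normalized counts in the sham cortex, 275 ± 18.6 in the sham striatum/thalamus and 375 ± 54.2 in the sham cerebellum, and was lower than the cerebellum in both (log2 -0.30 and -0.34, adjusted p = 0.00791 and 0.00388, edgeR). Chuk averaged 1397 ± 71.9, 1309 ± 93.2 and 1865 ± 235 in the same order of regions, also lower than the cerebellum in both (log2 -0.34 and -0.40, adjusted p = 2.13e-04 and 8.01e-05). Nfkbia averaged 145 ± 12.2, 144 ± 10.2 and 178 ± 9.25, with log2 differences of -0.23 and -0.21 (adjusted p = 0.025 and 0.0413), and the call for striatum/thalamus over cerebellum did not hold without any 1 of the 4 sham pups (adjusted p 0.0536 to 0.171) or without the pup block (0.0633), with reference-gene scaling (0.278), by DESeq2 (0.0863) or with background subtracted (0.0661), nor did that for cortex over cerebellum without sham pup 2, 6 or 8 (0.102, 0.0869 and 0.0609) or by DESeq2 (0.09).
Ikbkb averaged 831 ± 10.6, 769.6 ± 34.3 and 942 ± 127 and passed only for striatum/thalamus over cerebellum (log2 -0.18, adjusted p = 0.0297), a call that did not hold without sham pup 2 or 3 (adjusted p = 0.109 and 0.149), with reference-gene scaling (0.289) or with background subtracted (0.142). Nfkb2 averaged 55.3 ± 5.25, 55.9 ± 5.87 and 61.9 ± 8.34 and passed in none of the 3 comparisons, with the interval of the fold for cortex over cerebellum at 0.768 to 1.14.

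**Figure D4:**
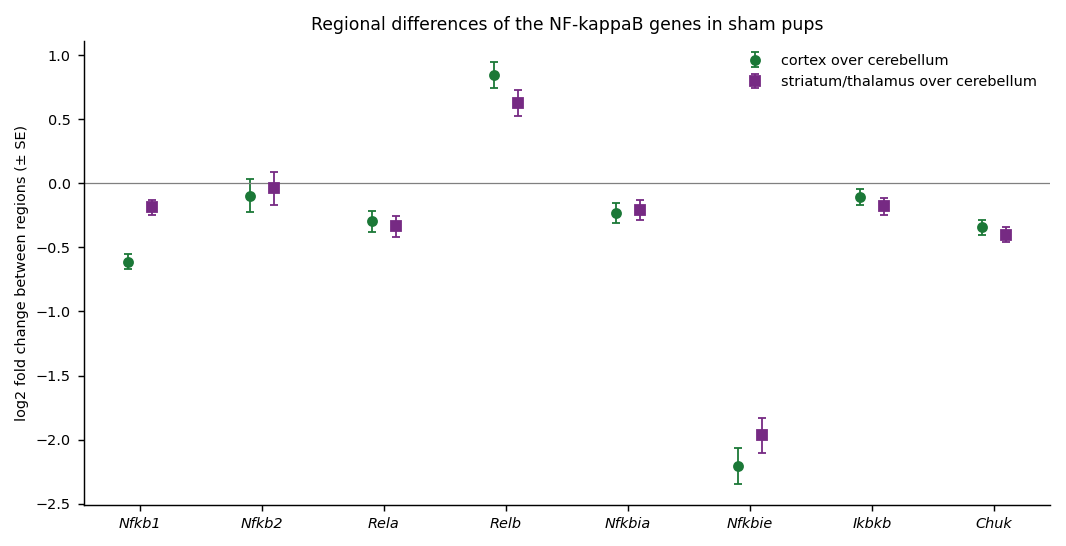
Log2 fold change between regions of sham pups (y axis, bars are ± SE) for each of the 8 genes (x axis), as cortex over cerebellum (green circles) and striatum/thalamus over cerebellum (purple squares). Nfkbie lies near -2 in both, and Relb, at 0.85 and 0.63, is the one gene above 0.

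The rest of the pathway on the panel was described through 4 lists, drawn up with earlier results of these data known. Of 17 receptors and adaptors on the panel (16 tested in the cortex) 0 passed in any region for HIBI over sham. Those with the smallest p were Cd14 (log2 0.47, adjusted p = 0.479) and Traf2 (-0.13, adjusted p = 0.715) in the cortex, Tnfrsf1a, the main receptor for tumor necrosis factor (0.38, adjusted p = 0.0556), and Myd88, the Toll-like receptor adaptor (-0.40, adjusted p = 0.181), in the striatum/thalamus, and Traf2 (-0.33, adjusted p = 0.241) and Il1r1 (0.40, adjusted p = 0.247) in the cerebellum, by edgeR. Of the 13 genes of the noncanonical arm, 1 rose in the cortex, where 2.33% of all genes passed. It was Tnfrsf12a, the receptor for the cytokine TWEAK (290 ± 80.1 normalized counts in HIBI pups, against 164 ± 16.3 in sham pups, log2 0.83, adjusted p = 0.0492, edgeR), a call lost by limma-voom, without the filter on low counts and without HIBI pup 7 or any 1 sham pup (adjusted p up to 0.162), and 0 passed in the other regions. Next to it stood Map3k14, the kinase NIK, in the cortex (log2 0.33, adjusted p = 0.453) and the striatum/thalamus (0.27, adjusted p = 0.315), Ltb in the striatum/thalamus (-0.28, adjusted p = 0.36), and Birc2 (-0.22) and Birc3 (0.45) in the cerebellum (adjusted p = 0.224 for both). Ikbkg, Ikbke and Bcl10, the panel genes of a list of other IKK, IkB, Rel and related genes, passed in 0 regions.

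Among 22 known target genes of NF-kappaB on the panel, 3 of 21 tested rose in the cortex, 3 of 21 in the striatum/thalamus and 1 of 20 in the cerebellum, and 0 fell, beside 2.33%, 2.73% and 0.420% of all genes past the threshold in the same regions. The list was drawn up with earlier results of these data known. Its counts and medians are therefore a description and not a test of enrichment. Many of them are also induced by other early transcription factors. Lcn2, which encodes the iron-scavenging lipocalin-2, averaged 89.6 ± 32.2 normalized counts in HIBI pups, against 29.9 ± 6.46 in sham pups in the cortex (log2 1.58, adjusted p = 0.0154) and 79.8 ± 25.1 in the HIBI and 25.1 ± 4.57 in the sham striatum/thalamus (log2 1.67, adjusted p = 0.00976, edgeR). Both sham means lay below the normalized background limits, 32.2 to 42.5 in the sham cortex and 32.7 to 40.3 in the sham striatum/thalamus. Over the fits tried, the log2 value of Lcn2 ran from 1.33 to 3.18 in the cortex and from 1.45 to 3.72 in the striatum/thalamus. Ptgs2, the inducible cyclooxygenase, averaged 264 ± 71.7 in HIBI pups and 87.7 ± 36.2 in sham pups in the cortex (log2 1.60, adjusted p = 0.0206) and 105 ± 38.6 in the HIBI and 32.9 ± 5.05 in the sham striatum/thalamus (log2 1.68, adjusted p = 0.0182, edgeR). The sham mean of Ptgs2 in the striatum/thalamus also lay within the range of the background limit. Its log2 value there ran from 1.48 to 2.95 over the fits tried. The chemokine gene Ccl3 rose in the cortex (log2 2.02, adjusted p = 0.0482), the chemokine gene Ccl2 in the striatum/thalamus (log2 1.42, adjusted p = 0.0217) and F3, which encodes tissue factor, in the cerebellum (log2 0.79, adjusted p = 0.0358), where C3 was next (0.63, adjusted p = 0.0917). Ccl3 averaged 38.6 normalized counts in the sham cortex, within the range of the background limit. Its log2 value ran from 1.54 to 3.07 over the fits tried, and that of Ccl2 in the striatum/thalamus from 1.03 to 2.30. Of these calls, that of Lcn2 in the striatum/thalamus held without any 1 of the 8 pups (adjusted p 0.00726 to 0.0446, edgeR). That of Lcn2 in the cortex was lost without sham pup 2, 6 or 8 (adjusted p up to 0.0546), that of Ptgs2 in the cortex without HIBI pup 5 or 7 or sham pup 3, 6 or 8 (up to 0.0783) and in the striatum/thalamus without HIBI pup 5 or sham pup 3, 6 or 8 (up to 0.0665). Ccl3 was lost by limma-voom, with no filter and without HIBI pup 5 or 7 or any 1 sham pup (up to 0.162), and Ccl2 in one fit of 24 libraries, when the Ttr-rich pair was dropped and without any 1 sham pup or HIBI pup 5 (up to 0.0757 with 1 pup left out). F3 did not pass without any 1 of the pups other than HIBI pup 7 (0.0571 to 0.17). The median log2 fold change of the targets was 0.17, 0.18 and 0.21 in the cortex, the striatum/thalamus and the cerebellum, beside medians of all genes within 0.01 of 0.

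The genes whose pattern was most like that of each member were ranked by Pearson's r over the 24 libraries after the mean of each region was taken off, among 744 other genes, as a description with no test. The libraries share pups, arm and scaling. Nfkbia ran closest to Ms4a4a (r = 0.749), F3 (r = 0.738) and Slc2a1 (r = 0.702), and Relb to Cd14 (r = 0.773) and Birc3 (r = 0.738). Nfkb2 ran closest to Fbln5 (r = 0.666), Mpeg1 and Emp1, Nfkb1 to Txnrd1 (r = 0.621) and H2afx, and Rela to Mmp14 (r = 0.698), Wdr5 and Sesn1. Nfkbie ran closest to Eed (r = 0.746), Kdm4a and Ptms. The kinases had the closest neighbours, with Ikbkb nearest to Fancg (r = 0.809), Rad1 and Irf3 and Chuk nearest to Sin3a (r = 0.835), Hells and Xrcc6.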

How the data were processed

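The deposited values were raw barcode counts of 784 probes (757 endogenous genes, 13 reference genes, 6 positive and 8 negative controls), made by the authors on the nCounter instrument without amplification. A second deposited table held the authors' group means, SDs, ratios and p-values from nSolver, whose settings are not given in the sources used here. Only its accession and class columns were read. The 8 members and 4 pathway lists were chosen with earlier results of these data known.

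Endogenous genes that reached 20 counts in 4 or more of the fitted libraries were tested with the two-sided quasi-likelihood F test of edgeR 4.0.16 (R 4.3.3) after TMM scaling, with Benjamini-Hochberg adjustment over all genes and a threshold of 0.05. HIBI and sham were compared within each region (8 libraries). Regions of sham pups and differences of effect were fitted with pup as a block, since the labels give the 3 regions of a number to 1 pup. Deviations of a pup's regions from their group means correlated at -0.062 to 0.56. A pup average of the 3 regions was tested with limma 3.58.1. Errors are SD over 4 pups or the SE of the fit. Alternatives were DESeq2 1.42.0, limma-voom, reference-gene scaling, background subtraction, no filter, another block or fit, and leaving out each pup. The fits were also run on simulated counts with the same dispersion for all genes and no pup effect. That run cannot show how the pup block or the pup average handles regions of the same pup. All 8 members are described. Other pathway genes are named where they passed or had the 2 smallest p of their list in a region, and the 3 genes most like each member by correlation, of which some are not reported here. No pair of libraries of a group agreed within sampling noise (chi-square per degree of freedom 5.13 to 56.5 over 36 pairs). Counts limit the precision at low levels, and intervals for HIBI over sham cover the spread between pups. Intervals from fits with pup as a block leave out differences in level shared by the regions of a pup. Sequences and start sites are from RefSeq.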

Additional observations from a re-analysis of the deposited data

Results flagged for a closer look

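Among the 48 groups of 4 libraries (8 genes, 3 regions, 2 arms), 2 held a library far from the other 3 by Dixon's criterion, which chance alone passes in about 1 in 20 groups. Ikbkb in the sham cortex was lowest in pup 8, at 815.4 normalized counts, with the other 3 pups at 836 to 838. Chuk in the sham striatum/thalamus was lowest in pup 6, at 1169, with the other 3 pups at 1344 to 1363. Both kinases had overlapping HIBI and sham libraries in these regions.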

How the results depend on the processing

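Of the values of single genes, 327 kept their direction and their side of the threshold when another tool, scaling, filter, background, block or fit was used or 2 libraries rich in Ttr were left out, 19 changed sign, 4 crossed to pass and 8 no longer passed. For leaving out 1 pup at a time the numbers were 389, 23, 0 and 12. No called value changed sign, and the cause of the changes was not tested.

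The count of members for HIBI over sham in the striatum/thalamus was 1 (Nfkbia) with DESeq2, with limma-voom and with background subtracted, and in the cerebellum 1 (Nfkbia, log2 0.48, adjusted p = 0.0325) in one fit of 24 libraries. Among all genes, these striatum/thalamus fits called 42 of 732, 22 of 732 and 21 of 622. The one fit of 24 libraries called 49 of 745 in the cerebellum, against 3 of 714 in the main fit. For striatum/thalamus over cerebellum in sham pups the count of members was 4 with reference-gene scaling, where Nfkb1, Nfkbia and Ikbkb no longer passed, 5 with background subtracted (without Nfkbia and Ikbkb), 6 with DESeq2 (without Nfkbia) and 4 to 6 when 1 pup was left out. Among all genes these fits called 485 of 740, 448 of 638 and 461 of 740, and 437 to 454 with 1 pup left out. Without the replicate block, Nfkbia had -0.21 there and did not pass (adjusted p = 0.0633), and the block changed no other call of the members. Nfkbia for HIBI over sham ranged from 0.34 to 0.43 in the striatum/thalamus (adjusted p 0.0219 to 0.167) and from 0.34 to 0.61 in the cerebellum (adjusted p 0.0325 to 0.516). The genes called among all genes numbered 7 to 27 for the cortex, 5 to 56 for the striatum/thalamus, 0 to 49 for the cerebellum and 18 to 66 for the pup average, with 17, 20, 3 and 28 in the text, and 229 to 497 over the sham regions.

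Signs that changed belonged to values near 0. Reference-gene scaling moved the median of all genes by 0.11 for HIBI over sham in the cerebellum, by -0.10 for cortex over striatum/thalamus and by -0.11 for the difference of effect of striatum/thalamus minus cerebellum. With it HIBI over sham in the cortex was 0.092 for Nfkb1, 0.087 for Ikbkb and 0.039 for Chuk, the pup average was 0.011 for Nfkb1 and 0.022 for Ikbkb, cortex over striatum/thalamus was -0.062 for Rela, -0.027 for Ikbkb and -0.044 for Chuk, striatum/thalamus over cerebellum was 0.061 for Nfkb2, and the difference of effect of cortex minus striatum/thalamus was 0.041 for Nfkbia and 0.019 for Rela. Nfkb1 in the cortex was 0.0019 with background subtracted. Ikbkb in the striatum/thalamus was -0.0124 with DESeq2, -0.0043 with limma-voom and -0.0122 without the Ttr-rich libraries, without which Relb was -0.019 and Chuk 0.048. Nfkbia for cortex over striatum/thalamus was 0.0024 with DESeq2 and 0.0048 with no filter.

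Leaving out 1 pup, HIBI over sham in the cortex ranged from -0.0849 to 0.038 for Nfkb1 and from -0.0599 to 0.029 for Ikbkb, and in the striatum/thalamus from -0.052 to 0.037 for Ikbkb, from -0.085 to 0.0101 for Chuk and from -0.033 to 0.102 for Relb. The pup average of Rela ranged from -0.036 to 0.041. In sham pups, striatum/thalamus over cerebellum ranged from -0.101 to 0.031 for Nfkb2, and cortex over striatum/thalamus from -0.0026 to 0.0997 for Rela, from -0.131 to 0.013 for Nfkb2 and from -0.051 to 0.0104 for Nfkbia. Differences of effect of Nfkbia ranged from -0.286 to 0.084 for cortex minus cerebellum, from -0.211 to 0.045 for striatum/thalamus minus cerebellum and from -0.157 to 0.039 for cortex minus striatum/thalamus, where Nfkb2 ranged from -0.058 to 0.317. With 4 pups in each arm, changes of the size of the SEs given could not be detected, and Nfkb2 lay closest to background.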

Other observations

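The members were also set against each other over the 24 libraries after the mean of each region was taken off, as a description with no test, since the libraries share pups, arms and scaling. The kinases Ikbkb and Chuk had r = 0.661, the highest of any pair, followed by Nfkb1 and Chuk (r = 0.57). Nfkbia ran against Chuk (r = -0.585), the lowest of any pair, and against Ikbkb (r = -0.374). Without the region means taken off, Relb and Nfkbie had r = -0.878, which carries their opposite regional levels.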
